A study of Mus musculus with 18 samples.

Results

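Bulk RNA sequencing was used to set mouse muscle progenitors induced with Pax7 against those induced with Pax3, as 3 libraries labelled iPax7 and 3 labelled iPax3, across all expressed genes. These are 6 of the 18 samples of the series. Per the labels, both groups are progenitors derived from ES cells, obtained by sorting Vcam1-positive, Flk1-negative cells out of embryoid bodies, then expanded for 3 passages under doxycycline and bFGF. Both groups therefore received doxycycline, the agent that switches inducible transgenes on, and no uninduced culture is among the libraries used here. The labels name no stem cell line, no clone, and nothing that says whether the replicates came from separate cultures, so p-values measure the spread between these libraries, which may be technical. The other 9 bulk libraries enter the gene filter, the scaling and the spread per gene, and serve as levels set beside the calls. They are embryonic myoblasts (Emb, E10.5) and fetal myoblasts (Fet, E14.5) of the strain labelled My5Cre Rosa26YFP, 3 libraries each. The last 3 are satellite cells of hindlimb muscle at postnatal day 3 (Neo, Pax7-ZsGreen). The genes tested, and the shares over all genes, can therefore include genes silent in both iPax groups, as with Tcf21 (0 CPM in every iPax library).

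Pax3 and Pax7 are paralogous transcription factors with a paired domain and a homeodomain, and both act upstream of the myogenic regulators Myf5 and Myod1. Pax3 is known for its role in the embryonic somite and in the precursors that migrate to the limb, while Pax7 marks fetal progenitors and satellite cells, the stem cells of muscle fibres. Once a progenitor commits, Myog drives its differentiation into fibres that express the contractile proteins.

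The library labelled iPax7 replicate 1 was known from earlier results to hold pluripotency transcripts, so each result is given with and without it. It also lay far from the other 5. In the other 9 bulk libraries, totals went down to 516504. Total counts were 38798892 to 56275318 in iPax3 and 15852638 to 27768610 in iPax7, so depth differed with the group. Levels are read counts scaled to the library total and TMM factors (CPM). Pearson's correlation of log2 CPM over the 17571 genes tested was 0.960 to 0.980 among iPax3 libraries and 0.967 between iPax7 replicates 2 and 3, but 0.827 to 0.872 between iPax7 replicate 1 and any other library. It held 975 genes at least 4-fold above, and 676 at least 4-fold below, every other iPax library, against 3 to 93 above and 17 to 125 below for each of the other 5 libraries. The 26 pluripotency genes searched summed to 40.9, 249 and 33.7 CPM in iPax3 and 7457, 45.2 and 34.5 CPM in iPax7, in replicate order. The high library was iPax7 replicate 1, which restates the trait by which it was set apart, and iPax3 replicate 2 lay above the remaining 4. Within both groups, replicates varied beyond sampling noise (chi-square per degree of freedom 68.1 to 460).

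**Figure D1:**
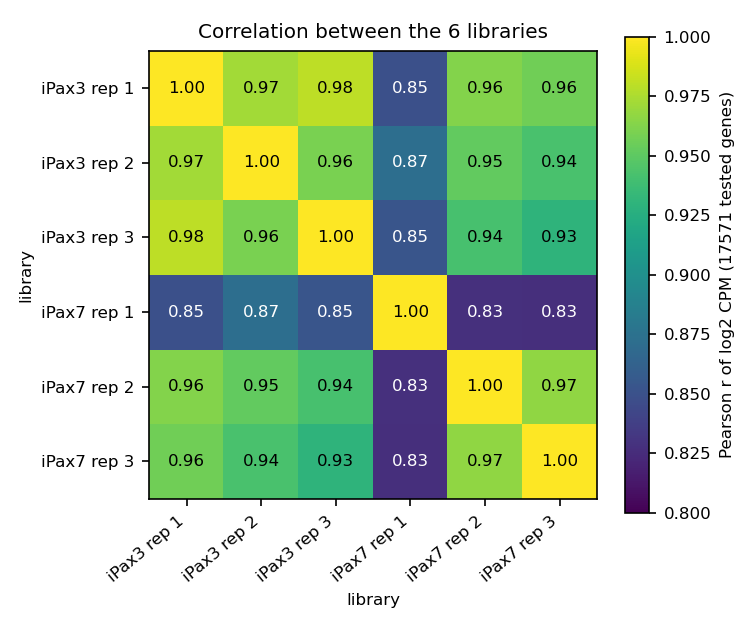
Pearson's r of log2 CPM for each pair of the 6 libraries over the 17571 tested genes, with replicates on both axes and r as colour and number. The row and column of iPax7 replicate 1 hold values of 0.827 to 0.872, and iPax7 replicates 2 and 3 lie closer to the iPax3 libraries than to it.

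Pax3 and Pax7 themselves check the labels and define the groups, so their difference is no finding. Pax3 (ENSMUSG00000004872, GRCm38 chromosome 1, 78101267 to 78197134) stood at 344, 355 and 295 CPM in iPax3 and 1.099, 3.75 and 2.05 in iPax7, in the order of replicates 1, 2 and 3, which is the order used throughout. Pax7 (ENSMUSG00000028736, chromosome 4, 139737062 to 139833528) stood at 0.280, 0.191 and 0.158 CPM in iPax3 and 0.989, 111 and 349 in iPax7. All iPax3 libraries were high in Pax3 and at the lowest levels of Pax7, and iPax7 replicates 2 and 3 showed the reverse, while iPax7 replicate 1 was low in both. Its Pax7 level was above that of every iPax3 library but rested on 27 counts. The counts do not separate an inducing transgene from the cell's own gene. Of the sort markers, Vcam1 was detected at 368, 182 and 362 CPM in iPax3 and 14.6, 85.6 and 135 in iPax7 (-1.96 ± 0.59, 0.399 with all libraries and -1.47 ± 0.46, 0.333 without iPax7 replicate 1). In such parentheses the first value is the log2 fold change of iPax7 over iPax3 with its SE and the second the adjusted p of edgeR's test. Every iPax7 library lay below every iPax3 library in Vcam1, without passing the test. Kdr, which encodes Flk1, was at or below 0.476 CPM in all libraries except iPax3 replicate 2 (3.77 CPM).

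With all libraries, edgeR's quasi-likelihood test called 13 of 17571 genes (0.074%) at an adjusted p under 0.05, 10 higher in iPax7 (0.0569%) and 3 lower (0.0171%), while 1083 (6.16%) had an unadjusted p under 0.05 and 56.2% a log2 fold change above 0. Without iPax7 replicate 1 it called 40 of 18499 genes (0.216%), 31 higher (0.168%) and 9 lower (0.0487%), and 1017 (5.5%) had an unadjusted p under 0.05 and 45.0% a log2 fold change above 0. Of the 13 genes, 12 were called again in the same direction without that library, Bgn being the exception. The list of 40 depends on which libraries enter the fit. A fit to the 5 iPax libraries alone called 189 of 16841 genes (1.12%), 113 higher (0.671%) and 76 lower (0.451%). Of these 189, 17 were among the 40. With all libraries, the calls depend on the libraries in the fit too. A fit to the 6 iPax libraries alone called 0 genes in edgeR, with 1686 at an unadjusted p under 0.05. Libraries of both groups did not overlap, with iPax7 higher, for 8.55% of genes tested with all libraries and 18.9% without iPax7 replicate 1, and with iPax7 lower for 10.2% and 22.2%. The median log2 fold change of all genes tested was 0.09 with all libraries and -0.05 without that library.

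Called higher in iPax7 with all libraries were 4 genes of the extracellular matrix. Col1a2 (ENSMUSG00000029661, chromosome 6, 4504814 to 4541544), the alpha-2 chain of type I collagen, stood at 46.9, 50.8 and 12.4 CPM in iPax3 and 655, 907 and 394 in iPax7. Its log2 fold change was 4.15 ± 0.52 (SE, adjusted p = 0.00496) and 4.14 ± 0.57 (adjusted p = 0.006696) without iPax7 replicate 1. Every iPax7 library, that one included, lay above every iPax3 library, and iPax3 replicate 3 was the lowest. Bgn (ENSMUSG00000031375, chromosome X, 73483602 to 73495933), the small proteoglycan biglycan, was measured at 13.8, 7.87 and 5.38 CPM in iPax3 and 104, 86.4 and 56.7 in iPax7. It was again separated without overlap (3.19 ± 0.56, adjusted p = 0.04399), but did not pass without iPax7 replicate 1 (3.19 ± 0.56, 0.04399 with all libraries and 2.97 ± 0.60, 0.0697 without iPax7 replicate 1). For Mgp (ENSMUSG00000030218, chromosome 6, 136872435 to 136875823), matrix Gla protein, an inhibitor of calcification, levels were 2.24, 1.001 and 0.685 CPM in iPax3 and 8.097, 21.8 and 7.06 in iPax7. For Mgp the log2 fold change was 3.22 ± 0.57 (adjusted p = 0.04399) with all libraries and 3.44 ± 0.57 (adjusted p = 0.0157) without iPax7 replicate 1. Lama4 (ENSMUSG00000019846, chromosome 10, 38965515 to 39110188), a laminin chain of basement membranes, reached 1.23, 1.02 and 0.5798 CPM in iPax3 and 13.8, 3.18 and 7.00 in iPax7. For Lama4 the log2 fold change was 3.07 ± 0.51 (adjusted p = 0.0281) with all libraries and 2.40 ± 0.45 (adjusted p = 0.0353) without iPax7 replicate 1. Mgp and Lama4 were low in both groups, and their separation rests on levels of at most 21.8 CPM.

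The other genes called higher included 2 long noncoding RNAs from the imprinted Dlk1-Dio3 region, both expressed from the maternal chromosome. Meg3 (ENSMUSG00000021268, chromosome 12, 109541001 to 109571726) stood at 75.4, 58.97 and 45.6 CPM in iPax3 and 233, 175 and 168 in iPax7. For Meg3 the log2 fold change was 1.68 ± 0.25 (adjusted p = 0.0148) with all libraries and 1.51 ± 0.24 (adjusted p = 0.0125) without iPax7 replicate 1. Rian (ENSMUSG00000097451, chromosome 12, 109603940 to 109661716), its neighbour downstream, was found at 128, 82.0 and 48.4 CPM in iPax3 and 346, 330.2 and 295 in iPax7. For Rian the log2 fold change was 1.91 ± 0.30 (adjusted p = 0.0217) with all libraries and 1.85 ± 0.32 (adjusted p = 0.0187) without iPax7 replicate 1. In both the 3 iPax7 libraries were close together and above all iPax3 libraries, of which replicate 3 was the lowest. Crabp2 (ENSMUSG00000004885, chromosome 3, 87948666 to 87953376), which carries retinoic acid to its nuclear receptors, was at 11.4, 10.2 and 8.78 CPM in iPax3 and 38.3, 129.7 and 75.5 in iPax7. Its log2 fold change was 3.00 ± 0.47 (adjusted p = 0.0217) with all libraries and 3.33 ± 0.42 (adjusted p = 0.00275) without iPax7 replicate 1, the lowest iPax7 library.

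Slc29a1 (ENSMUSG00000023942, chromosome 17, 45585200 to 45599606), an equilibrative nucleoside transporter, had 28.2, 26.2 and 31.7 CPM in iPax3 and 261, 249.9 and 72.6 in iPax7 (2.76 ± 0.46, 0.0281 with all libraries and 2.48 ± 0.46, 0.0339 without iPax7 replicate 1), and iPax7 replicate 3 lay nearest to iPax3. Pygl (ENSMUSG00000021069, chromosome 12, 70190811 to 70231488), the liver form of glycogen phosphorylase, had 0.280, 0.262 and 0.184 CPM in iPax3 and 18.4, 2.33 and 4.496 in iPax7. For Pygl the log2 fold change was 5.08 ± 0.82 (adjusted p = 0.0229) with all libraries and 3.77 ± 0.65 (adjusted p = 0.0187) without iPax7 replicate 1. For Pygl, iPax7 replicate 1 was the highest of all, and the other iPax7 libraries still exceeded iPax3.

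Besides Pax3, the genes called lower in iPax7 with all libraries were Ccnd1 and Errfi1. Ccnd1 (ENSMUSG00000070348, chromosome 7, 144929931 to 144939925), cyclin D1, which drives entry into S phase, stood at 527, 452 and 561 CPM in iPax3 and 63.5, 136 and 95.6 in iPax7. The log2 fold change was -2.38 ± 0.31 (adjusted p = 0.00497) with all libraries and -2.16 ± 0.31 (adjusted p = 0.00631) without iPax7 replicate 1. The highest iPax7 library was far below the lowest iPax3 library. Errfi1 (ENSMUSG00000028967, chromosome 4, 150853919 to 150868892), a feedback inhibitor of the EGF receptor, was at 188, 153 and 319.7 CPM in iPax3 and 31.8, 50.5 and 20.6 in iPax7. For Errfi1 the log2 fold change was -2.68 ± 0.42 (adjusted p = 0.0217) with all libraries and -2.64 ± 0.48 (adjusted p = 0.0293) without iPax7 replicate 1.

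Leaving out each of the 6 libraries in turn, Pax3, Col1a2 and Ccnd1 passed every time in fits that keep the 9 other bulk libraries. In the fit to the 6 iPax libraries alone none of the 13 passed. In the 5 iPax libraries alone, Pax3, Pax7, Crabp2, Ccnd1, Pygl, Meg3 and Bgn passed. The other 6 did not, with edgeR adjusted p of 0.0569 for Col1a2, 0.06803 for Mgp, 0.0722 for Lama4, 0.0722 for Slc29a1, 0.0722 for Rian and 0.07398 for Errfi1. Of the 13 calls, 6, 4 and 3 passed again without iPax3 replicates 1, 2 and 3, and 12, 11 and 12 without iPax7 replicates 1, 2 and 3. The labels give no batch, run or date for any library.

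**Figure D2:**
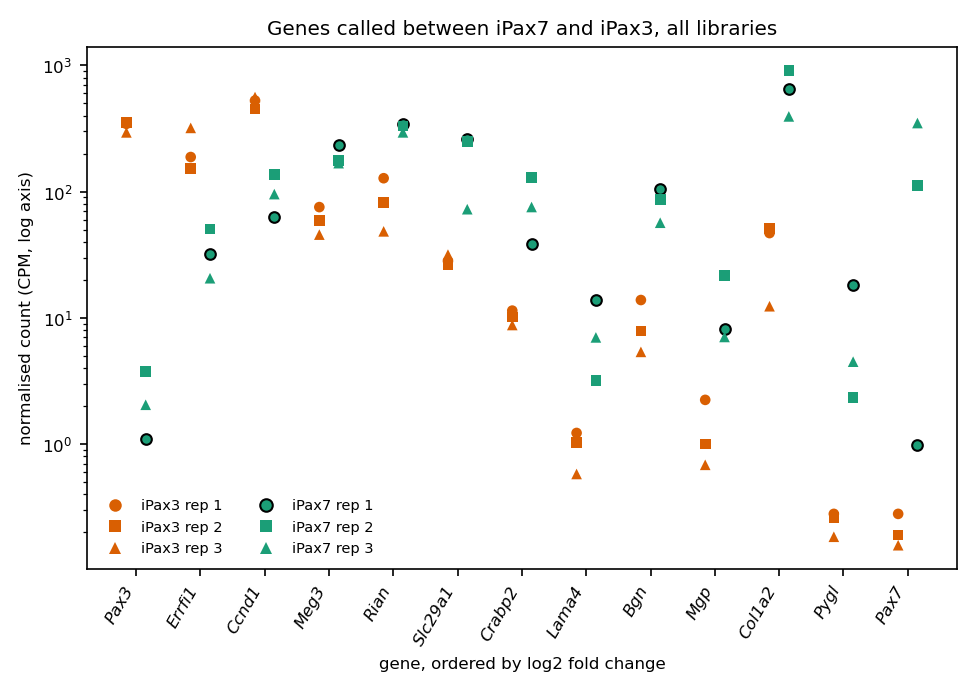
CPM on a log axis of the 13 genes called with all libraries, ordered by log2 fold change, with iPax3 libraries in orange and iPax7 libraries in green, 1 marker shape per replicate and a black outline for iPax7 replicate 1. The groups do not overlap for any of the 13, and for Pax7 iPax7 replicate 1 lies at 0.989 CPM, far below the other iPax7 libraries.

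Islr, Ptn and Postn were among the genes called higher in iPax7 without iPax7 replicate 1. Islr, a secreted protein with leucine-rich repeats, stood at 2.68, 2.46 and 1.21 CPM in iPax3 and 0.953, 66.9 and 56.6 in iPax7 and had a log2 fold change of 4.85 ± 0.56 (adjusted p = 0.001398), against 4.29 ± 0.999 (0.205) with all libraries. Ptn, the heparin-binding growth factor pleiotrophin, was at 20.2, 24.96 and 6.93 CPM in iPax3 and 4.51, 163 and 475 in iPax7. For Ptn the log2 fold change was 4.19 ± 0.56 (adjusted p = 0.00631) without iPax7 replicate 1 and 3.62 ± 1.01 (adjusted p = 0.3495) with all libraries. Postn, the matricellular protein periostin, was at 1.86, 7.56 and 2.77 CPM in iPax3 and 14.4, 44.5 and 45.6 in iPax7. For Postn the log2 fold change was 3.46 ± 0.61 (adjusted p = 0.0340) without iPax7 replicate 1 and 3.101 ± 0.62 (adjusted p = 0.1004) with all libraries. In Islr and Ptn, iPax7 replicate 1 lay below every iPax3 library, whereas in Postn it lay above them all.

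Col11a1, a fibrillar collagen chain, stood at 22.8, 19.3 and 6.11 CPM in iPax3 and 35.5, 91.6 and 104 in iPax7. For Col11a1 the log2 fold change was 2.59 ± 0.41 (adjusted p = 0.009297) without iPax7 replicate 1 and 2.26 ± 0.45 (adjusted p = 0.0974) with all libraries. Fbn2, a microfibril protein, stood at 14.96, 11.97 and 6.03 CPM in iPax3 and 4.58, 40.9 and 108 in iPax7. For Fbn2 the log2 fold change was 2.75 ± 0.38 (adjusted p = 0.00631) without iPax7 replicate 1 and 2.22 ± 0.68 (adjusted p = 0.415) with all libraries. C1qtnf3, a secreted protein of the C1q and TNF family, was at 18.4, 5.53 and 8.22 CPM in iPax3 and 1.502, 267 and 109 in iPax7. For C1qtnf3 the log2 fold change was 4.12 ± 0.65 (adjusted p = 0.0155) without iPax7 replicate 1 and 3.55 ± 1.12 (adjusted p = 0.463) with all libraries. Of these 3, iPax7 replicate 1 exceeded iPax3 in Col11a1 only. Gpx3, the secreted glutathione peroxidase, was at 25.5, 9.27 and 6.35 CPM in iPax3 and 34.3, 89.98 and 249 in iPax7. For Gpx3 the log2 fold change was 3.62 ± 0.64 (adjusted p = 0.0241) without iPax7 replicate 1 and 3.18 ± 0.70 (adjusted p = 0.1403) with all libraries.

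The next 3 genes called higher encode membrane proteins. Gfra1, the coreceptor for GDNF, stood at 20.8, 30.6 and 5.67 CPM in iPax3 and 4.14, 309.9 and 165 in iPax7. For Gfra1 the log2 fold change was 3.63 ± 0.56 (adjusted p = 0.009297) without iPax7 replicate 1 and 3.07 ± 0.95 (adjusted p = 0.417) with all libraries. Rgma, a BMP coreceptor, stood at 8.65, 10.6 and 5.27 CPM in iPax3 and 2.75, 39.1 and 85.6 in iPax7. For Rgma the log2 fold change was 2.92 ± 0.48 (adjusted p = 0.0151) without iPax7 replicate 1 and 2.38 ± 0.76 (adjusted p = 0.439) with all libraries. Gas1, a membrane protein that binds Hedgehog ligands, stood at 7.39, 10.8 and 6.905 CPM in iPax3 and 3.66, 74.6 and 52.3 in iPax7. For Gas1 the log2 fold change was 2.91 ± 0.41 (adjusted p = 0.00631) without iPax7 replicate 1 and 2.38 ± 0.70 (adjusted p = 0.394) with all libraries. In all 3, iPax7 replicates 2 and 3 were above and iPax7 replicate 1 below every iPax3 library. Pgm5, a phosphoglucomutase-like protein of adherens junctions, was at 6.18, 4.27 and 1.79 CPM in iPax3 and 1.21, 44.01 and 109 in iPax7 (3.65 ± 0.99, 0.3105 with all libraries and 4.21 ± 0.64, 0.00812 without iPax7 replicate 1). Pdzrn3, a ubiquitin ligase, was at 10.6, 12.3 and 4.43 CPM in iPax3 and 8.903, 61.6 and 52.2 in iPax7. For Pdzrn3 the log2 fold change was 2.63 ± 0.38 (adjusted p = 0.006696) without iPax7 replicate 1 and 2.17 ± 0.54 (adjusted p = 0.2199) with all libraries. Of the remaining calls, 3 were picked out after their values were seen. Igf1, insulin-like growth factor 1, was 1 of them (4.62, 3.77 and 0.949 CPM in iPax3 and 1.25, 21.3 and 18.3 in iPax7; 2.12 ± 0.73, 0.5201 with all libraries and 2.65 ± 0.47, 0.0278 without iPax7 replicate 1). The binding proteins were Igfbp4 (20.9, 22.9 and 20.1 CPM in iPax3 and 40.2, 159.6 and 56.1 in iPax7; 2.00 ± 0.40, 0.0974 with all libraries and 2.33 ± 0.35, 0.00805 without iPax7 replicate 1) and Igfbp5 (159, 269 and 74.7 CPM in iPax3 and 10.6, 1042 and 797 in iPax7; 1.88 ± 0.92, 0.852 with all libraries and 2.45 ± 0.41, 0.0177 without iPax7 replicate 1). For all 3, iPax7 replicates 2 and 3 lay above every iPax3 library, and for Igfbp5 iPax7 replicate 1 lay below them.

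Genes called lower without iPax7 replicate 1 included Hmga2, Hmga1, Ezr, Mdm2 and Ddx21. Hmga2, an architectural chromatin protein of embryonic cells, stood at 682, 968 and 951 CPM in iPax3 and 31.1, 197 and 136 in iPax7. The log2 fold change was -2.39 ± 0.43 (adjusted p = 0.0282), and -2.84 ± 0.54 (0.0741) with all libraries, where iPax7 replicate 1 was the lowest of all. Its relative Hmga1, which has near-identical gene copies whose reads the counting may split, stood at 142, 151 and 195 CPM in iPax3 and 334, 37.5 and 35.6 in iPax7. For Hmga1 the log2 fold change was -2.16 ± 0.32 (adjusted p = 0.006696) without iPax7 replicate 1 and -0.26 ± 0.61 (adjusted p = 1) with all libraries. Here iPax7 replicate 1 was the highest library, as it was for Ezr, ezrin, which links the membrane to actin, at 192, 201 and 345 CPM in iPax3 and 402, 64.2 and 59.5 in iPax7. For Ezr the log2 fold change was -1.999 ± 0.38 (adjusted p = 0.0384) without iPax7 replicate 1 and -0.49 ± 0.56 (adjusted p = 1) with all libraries. Mdm2, the ubiquitin ligase that degrades p53, was at 528, 666 and 612 CPM in iPax3 and 294, 264 and 181 in iPax7. For Mdm2 the log2 fold change was -1.45 ± 0.28 (adjusted p = 0.0494) without iPax7 replicate 1 and -1.29 ± 0.27 (adjusted p = 0.105) with all libraries. Ddx21, a nucleolar RNA helicase, was at 628, 571 and 739.8 CPM in iPax3 and 545, 314 and 224 in iPax7. For Ddx21 the log2 fold change was -1.27 ± 0.24 (adjusted p = 0.0383) without iPax7 replicate 1 and -0.84 ± 0.28 (adjusted p = 0.503) with all libraries. Mdm2 and Ddx21 were below iPax3 in every iPax7 library.

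Of the 31 genes called higher without iPax7 replicate 1, 16 lay above every iPax3 library in that library as well and 12 lay below every one. Of the 9 called lower, 6 lay below every iPax3 library there and 3 above (Hmga1, Ezr and the adenylate kinase Ak4). Leaving out a further library, 26, 32 and 18 of the 40 passed again without iPax3 replicates 1, 2 and 3, and 16 and 15 without iPax7 replicates 2 and 3, where the lone iPax7 library is assumed to vary like the other groups. Pax7, Islr, Ptn, Crabp2, Gas1 and Pdzrn3 passed in all 5 cases.

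**Figure D3:**
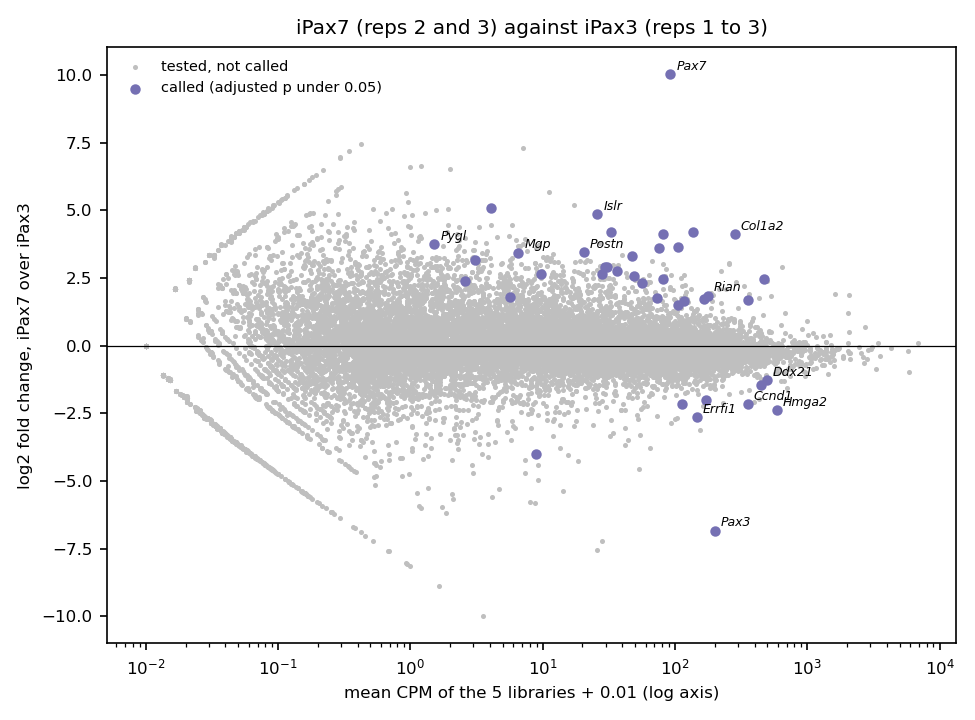
Log2 fold change of iPax7 (replicates 2 and 3) over iPax3 (replicates 1 to 3) against the mean CPM of these 5 libraries plus 0.01, on a log axis, for the 18499 genes tested. The 40 called genes are purple and 12 of them are named, with Pax7 at 10.04 and Pax3 at -6.83 as the ends of the called range.

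Myogenic regulators differed in sign from gene to gene. edgeR called none of the 22 tested with all libraries (1 at an unadjusted p under 0.05) or of the 23 tested without iPax7 replicate 1 (9). With all libraries, 1 was higher and 2 lower without overlap, against backgrounds of 8.55% and 10.2%. Without iPax7 replicate 1, 10 were higher and 3 lower, against 18.9% and 22.2%. Those 3 include Lbx1, which was at most 0.143 CPM in iPax3. Myf5, the determination factor, stood at 283, 170.1 and 292 CPM in iPax3 and 1.099, 83.2 and 87.9 in iPax7. For Myf5 the log2 fold change was -2.11 ± 0.92 (adjusted p = 0.755) with all libraries, -1.55 ± 0.52 (adjusted p = 0.452) without iPax7 replicate 1 and -1.49 ± 0.27 (adjusted p = 0.0575) in the 5 iPax libraries alone. Every iPax7 library was below every iPax3 library. Myod1, which commits cells to the muscle lineage, stood at 9.35, 6.05 and 0.264 CPM in iPax3 and 0.0366, 27.1 and 43.9 in iPax7 (2.18 ± 1.37, 1 with all libraries and 2.75 ± 1.05, 0.648 without iPax7 replicate 1), and iPax3 replicate 3 and iPax7 replicate 1 were both near 0. Myog, which drives terminal differentiation, stood at 96.6, 72.4 and 30.4 CPM in iPax3 and 1.58, 563 and 517 in iPax7. For Myog the log2 fold change was 2.44 ± 1.17 (adjusted p = 0.835) with all libraries, 3.01 ± 0.66 (adjusted p = 0.107) without iPax7 replicate 1 and 3.07 ± 0.47 (adjusted p = 0.0523) in the 5 iPax libraries alone. Its levels in iPax7 replicates 2 and 3 exceeded every iPax3 library and lay close to each other, while iPax7 replicate 1 was below them all. Myf6, a regulator of late fibres, was at most 0.191 CPM in each library.

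Of the other regulators, Mef2c, a cofactor of the myogenic factors, stood at 29.8, 39.4 and 1.03 CPM in iPax3 and 2.56, 128 and 114 in iPax7 (1.798 ± 1.05, 1 with all libraries and 2.36 ± 0.82, 0.536 without iPax7 replicate 1), with iPax3 replicate 3 near the level of iPax7 replicate 1. Meox1, a somite homeobox gene, stood at 1.47, 1.38 and 0.896 CPM in iPax3 and 0.0733, 3.88 and 4.95 in iPax7. For Meox1 the log2 fold change was 1.24 ± 0.83 (adjusted p = 1) with all libraries and 1.804 ± 0.54 (adjusted p = 0.2902) without iPax7 replicate 1. Genes that have been described as targets of Pax3 or Pax7 gave a median log2 fold change of 0.32 over 10 genes, and 0.86 without iPax7 replicate 1. With all libraries, 0 were higher and 1 lower without overlap (backgrounds 8.55% and 10.2%). Without iPax7 replicate 1, 5 of the 10 were higher (18.9%), 2 lower (22.2%) and none called (5 at an unadjusted p under 0.05). Those 2 include Lbx1, at 0.0875, 0.143 and 0.0791 CPM in iPax3 and 0 in iPax7 replicates 2 and 3. Itm2a, a membrane protein of early muscle cells, stood at 1082, 1486 and 401 CPM in iPax3 and 42.9, 2795 and 4505 in iPax7. For Itm2a the log2 fold change was 1.31 ± 0.93 (adjusted p = 1) with all libraries and 1.87 ± 0.47 (adjusted p = 0.165) without iPax7 replicate 1. Cxcr4, a chemokine receptor of migrating precursors, was at 11.4, 10.1 and 5.14 CPM in iPax3 and 0.586, 24.6 and 58.4 in iPax7 (1.64 ± 0.98, 1 with all libraries and 2.21 ± 0.68, 0.321 without iPax7 replicate 1). Met, the receptor for hepatocyte growth factor, was at 114, 138 and 101 CPM in iPax3 and 14.51, 285 and 160.1 in iPax7. For Met the log2 fold change was 0.38 ± 0.60 (adjusted p = 1) with all libraries and 0.91 ± 0.32 (adjusted p = 0.524) without iPax7 replicate 1. In these 3, iPax7 replicates 2 and 3 lay above all iPax3 libraries and iPax7 replicate 1 below them.

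Contractile and excitation-contraction genes, the products of differentiation, were measured higher in iPax7 replicates 2 and 3 than in iPax3. Without iPax7 replicate 1 the median log2 fold change of the 42 tested of 43 was 1.99, against -0.05 for all genes, and 35 of the 42 were higher without overlap, against a background of 18.9%. Only the tropomyosin Tpm1 was lower without overlap, and edgeR called no gene (14 at an unadjusted p under 0.05). With all libraries, the median was 1.57 and 2 of 42 (Ldb3 and Mymx) were higher without overlap, against 8.55%. In the 5 iPax libraries alone, 5 of 41 were called, all higher, against 0.671% of all genes. Ttn, the giant sarcomere spring titin, was one (78.4, 95.03 and 105 CPM in iPax3 and 7.62, 363 and 325 in iPax7; 1.94 ± 0.18, adjusted p = 0.0235). Ryr1, the calcium release channel, was called too (37.4, 39.5 and 19.8 CPM in iPax3 and 18.5, 121 and 137 in iPax7; 2.04 ± 0.30, 0.0453). Chrng is the fetal subunit of the acetylcholine receptor (23.3, 18.1 and 18.5 CPM in iPax3 and 0.3297, 89.8 and 69.5 in iPax7; 2.04 ± 0.21, 0.0301). Tnni2 is a troponin (5.86, 3.29 and 4.19 CPM in iPax3 and 0.733, 17.5 and 17.8 in iPax7; 2.03 ± 0.32, 0.0475), and Mymx a fusion peptide (1.33, 1.502 and 0.527 CPM in iPax3 and 22.5, 17.02 and 12.4 in iPax7; 3.75 ± 0.49, 0.0404).

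The mean log2 CPM over the contractile list was 3.44, 3.60 and 1.33 in iPax3 and 0.87, 5.05 and 4.95 in iPax7. Replicate 3 lay below the other iPax3 libraries, and without that library as well the list's median was 1.72. Beside Ryr1, the smallest p without iPax7 replicate 1 was that of Atp2a1, the calcium pump of fast fibres (15.9, 10.4 and 3.29 CPM in iPax3 and 0.659, 68.9 and 87.9 in iPax7; 2.41 ± 1.10, 0.782 with all libraries and 2.98 ± 0.79, 0.188 without iPax7 replicate 1). The next was Des, desmin (53.9, 58.7 and 16.1 CPM in iPax3 and 29.9, 149.6 and 209 in iPax7; 1.59 ± 0.65, 0.702 with all libraries and 2.05 ± 0.57, 0.224 without iPax7 replicate 1) and then Mylpf, a myosin light chain (60.8, 71.1 and 10.8 CPM in iPax3 and 31.1, 183 and 272 in iPax7; 1.77 ± 0.84, 0.816 with all libraries and 2.25 ± 0.79, 0.529 without iPax7 replicate 1). In these bulk libraries, fewer differentiating cells and less RNA per cell cannot be told apart.

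Satellite cell markers had 7 of 28 genes higher without overlap with all libraries, against a background of 8.55%. The count was 18 of 28 without iPax7 replicate 1, against 18.9%, with a median of 0.95. Pax7, the factor that names the group, is counted in both. Lower without overlap were 2 of 28 in either fit (Vcam1 and Calcr), against backgrounds of 10.2% with all libraries and 22.2% without iPax7 replicate 1. Besides Pax7, the junction protein Jam3 was called without iPax7 replicate 1 (77.01, 48.3 and 60.6 CPM in iPax3 and 11.2, 203 and 193 in iPax7; 1.13 ± 0.62, 0.951 with all libraries and 1.67 ± 0.32, 0.0384 without iPax7 replicate 1). Sox8, a transcription factor of satellite cells, stood at 8.05, 5.72 and 8.802 CPM in iPax3 and 0.623, 61.1 and 44.1 in iPax7 (2.23 ± 1.01, 0.779 with all libraries and 2.80 ± 0.70, 0.157 without iPax7 replicate 1) and was called in the 5 libraries alone (2.85 ± 0.27, 0.0250), as was the cadherin Cdh15 (89.3, 62.95 and 87.3 CPM in iPax3 and 0.843, 184 and 234 in iPax7; 1.43 ± 0.21, 0.0453). Chodl, a membrane lectin, stood at 0.0525, 1.45 and 0.0527 CPM in iPax3 and 0.293, 7.397 and 46.7 in iPax7. For Chodl the log2 fold change was 5.11 ± 1.498 (adjusted p = 0.373) with all libraries and 5.68 ± 1.26 (adjusted p = 0.107) without iPax7 replicate 1. The list also held genes of the other sign: Vcam1 and the calcitonin receptor Calcr (2.38, 2.65 and 0.8697 CPM in iPax3 and 0.1099, 0.0676 and 0.683 in iPax7; -2.78 ± 2.30, 1 with all libraries and -2.40 ± 2.71, 1 without iPax7 replicate 1) were lower in every iPax7 library than in every iPax3 library.

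**Figure D4:**
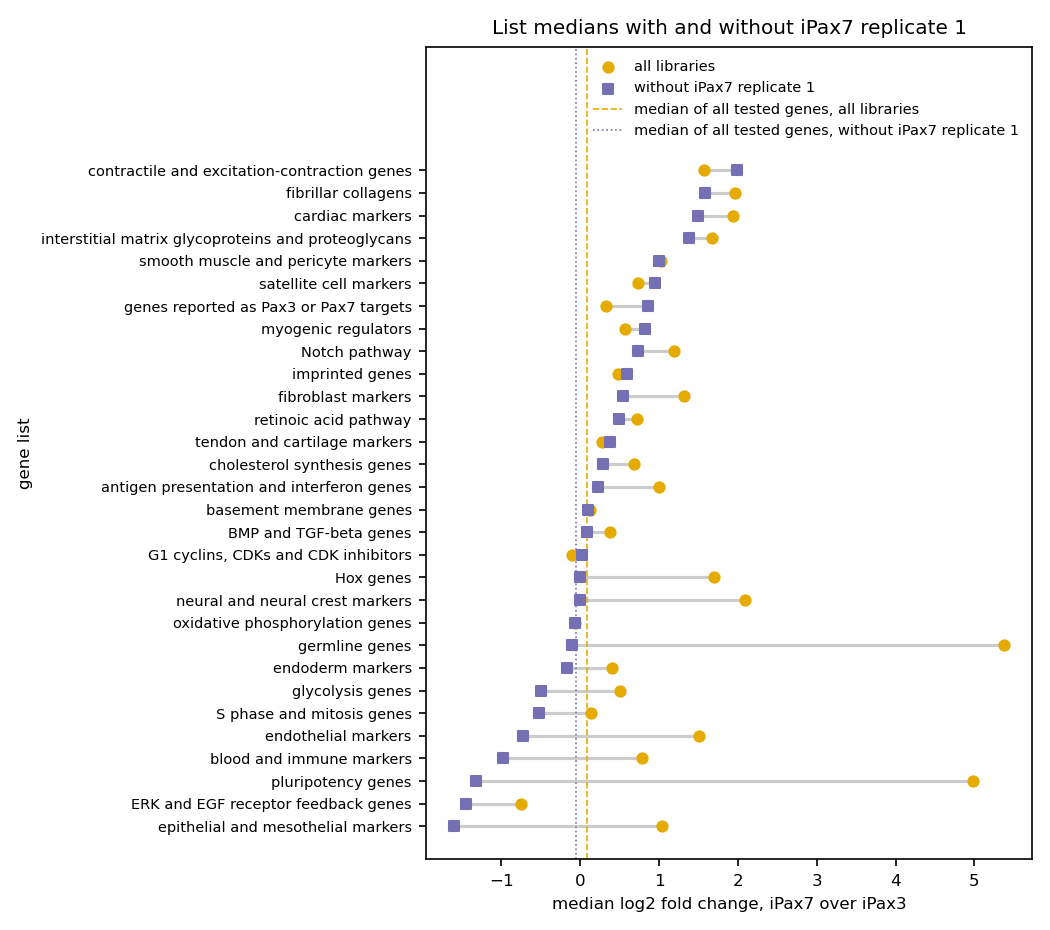
Median log2 fold change of iPax7 over iPax3 over the tested genes of each list, with all libraries (yellow circles) and without iPax7 replicate 1 (purple squares), and the medians of all tested genes as vertical lines at 0.09 and -0.05. The contractile, fibrillar collagen and interstitial matrix lists lie right of the lines in both, while pluripotency, germline, epithelial, glycolysis and S phase lists are among those on opposite sides of 0 with and without iPax7 replicate 1.

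Fibrillar collagens and the glycoproteins and proteoglycans of the interstitial matrix held 3 of the 13 genes called with all libraries and 6 of the 40 called without iPax7 replicate 1. Of all genes tested, 0.074% and 0.216% were called in these fits, and 0.0569% and 0.168% were called higher. All 11 fibrillar collagen genes had a positive log2 fold change with all libraries, against 56.2% of all genes. Their median was 1.96, with 4 higher without overlap (background 8.55%) and 1 called. Without iPax7 replicate 1, 10 of 11 were positive, against 45.0% of all genes. The median was then 1.59, with 8 higher without overlap (background 18.9%) and 2 called. Col3a1 stood at 396, 63.2 and 81.6 CPM in iPax3 and 179.9, 996 and 929 in iPax7 (1.96 ± 0.66, 0.515 with all libraries and 2.41 ± 0.60, 0.179 without iPax7 replicate 1). Col5a1 was at 129, 192 and 47.7 CPM in iPax3 and 177, 409.7 and 333 in iPax7. For Col5a1 the log2 fold change was 1.32 ± 0.43 (adjusted p = 0.491) with all libraries and 1.59 ± 0.43 (adjusted p = 0.215) without iPax7 replicate 1. Interstitial matrix genes had medians of 1.67 and 1.37 over 37 genes, with 12 and 23 higher without overlap (backgrounds 8.55% and 18.9%). In both fits 3 were lower without overlap (backgrounds 10.2% and 22.2%), and 2 and 4 were called, all higher. Col6a2, a chain of type VI collagen, stood at 4.32, 2.34 and 1.82 CPM in iPax3 and 51.1, 11.9 and 8.14 in iPax7. For Col6a2 the log2 fold change was 3.06 ± 0.56 (adjusted p = 0.05901) with all libraries and 1.81 ± 0.36 (adjusted p = 0.0496) without iPax7 replicate 1. Not every matrix gene had that sign: the list's Tnc (769, 939 and 895 CPM in iPax3 and 100.3, 481 and 234 in iPax7; -1.67 ± 0.50, 0.372 with all libraries and -1.29 ± 0.46, 0.531 without iPax7 replicate 1), Vcan and Ltbp1 (529.5, 562 and 486 CPM in iPax3 and 38.7, 264 and 249 in iPax7; -1.51 ± 0.48, 0.439 with all libraries and -1.04 ± 0.30, 0.258 without iPax7 replicate 1) were lower without overlap in both, and Ltbp1 was called lower in the 5 libraries alone (-0.99 ± 0.15, 0.0475).

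Basement membrane genes had a median log2 fold change of 0.13 with all libraries and 0.10 without iPax7 replicate 1, over 24 genes. The latter moved to 0.60 and -0.07 when iPax3 replicate 2 or 3 was left out as well. With iPax7 replicate 1 left out, 4 were higher and 5 lower without overlap, against backgrounds of 18.9% and 22.2%, and Lama4 was called higher in both fits. Nid1, nidogen, stood at 414, 755 and 445 CPM in iPax3 and 171, 313 and 171 in iPax7 (-1.30 ± 0.36, 0.312 with all libraries and -1.16 ± 0.39, 0.452 without iPax7 replicate 1). Col18a1 was at 629.8, 372 and 750.1 CPM in iPax3 and 391, 299.9 and 197 in iPax7. For Col18a1 the log2 fold change was -0.98 ± 0.34 (adjusted p = 0.517) with all libraries and -1.24 ± 0.36 (adjusted p = 0.2597) without iPax7 replicate 1. The difference between matrix lists was not tested. Markers of fibroblasts summed to 1025, 878 and 588 CPM in iPax3 and 1752, 2732 and 2027 CPM in iPax7, and 8 of 22 were higher without overlap when iPax7 replicate 1 is left out (background 18.9%), against 5 of 22 with it (background 8.55%). This sum includes the collagens above. Of the 22, 15 had a positive log2 fold change with all libraries (56.2% of all genes) and 16 without iPax7 replicate 1 (45.0%). Dcn was at 0.298, 0.453 and 0.343 CPM in iPax3 and 0.696, 2.87 and 1.59 in iPax7, higher in every iPax7 library (2.23 ± 0.78, 0.525 with all libraries and 2.61 ± 0.82, 0.388 without iPax7 replicate 1). Pdgfra was at 0.5601, 1.02 and 0.632 CPM in iPax3 and 6.302, 0.946 and 1.195 in iPax7. The part of other cell types in the matrix calls was not tested.

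Genes of ERK and EGF receptor feedback, many of which are induced by growth factor signalling or dampen it, were measured lower in iPax7. With all libraries, 1 of 23 had a log2 fold change above 0 (median -0.75), against 56.2% of all genes. Lower without overlap were 10, against a background of 10.2%, and Errfi1 was called. Without iPax7 replicate 1 the median was -1.45, and -0.96 without iPax3 replicate 2 as well. Leaving out iPax7 replicate 1 alone, 16 of 23 were lower without overlap against 22.2%, and none was higher. Dusp6, a phosphatase of ERK, stood at 179, 194 and 178 CPM in iPax3 and 68.2, 42.3 and 80.9 in iPax7 (-1.53 ± 0.33, 0.119 with all libraries and -1.59 ± 0.36, 0.107 without iPax7 replicate 1). Dusp4, its relative, was at 138, 268 and 198 CPM in iPax3 and 28.1, 88.6 and 41.1 in iPax7. For Dusp4 the log2 fold change was -1.94 ± 0.42 (adjusted p = 0.124) with all libraries and -1.64 ± 0.41 (adjusted p = 0.157) without iPax7 replicate 1. Egfr, the EGF receptor, stood at 83.2, 178 and 90.0 CPM in iPax3 and 16.6, 40.3 and 23.7 in iPax7. For Egfr the log2 fold change was -2.12 ± 0.51 (adjusted p = 0.211) with all libraries and -1.88 ± 0.56 (adjusted p = 0.284) without iPax7 replicate 1. In all 3, every iPax7 library lay below every iPax3 library. In the 5 libraries alone, Etv4, Etv5 and Areg were called lower (adjusted p = 0.0323, 0.0323 and 0.04101). Of these, the ERK-responsive factors Etv4 (20.04, 24.2 and 44.4 CPM in iPax3 and 26.1, 1.35 and 1.71 in iPax7) and Etv5 (39.4, 35.3 and 33.8 CPM in iPax3 and 142, 7.09 and 9.79 in iPax7) were not low in iPax7 replicate 1, while the EGF family ligand Areg (6.703, 6.08 and 7.62 CPM in iPax3 and 0.0366, 0.9796 and 1.02 in iPax7) was.

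The list of G1 regulators had medians of -0.10 with all libraries and 0.02 without iPax7 replicate 1, over 19 genes. With all libraries, 1 was higher and 5 lower without overlap (backgrounds 8.55% and 10.2%). Without iPax7 replicate 1, 5 were higher and 6 lower (backgrounds 18.9% and 22.2%). Ccnd1 was the only call in either fit. Of the others, Ccnd2, cyclin D2, stood at 934, 878 and 696 CPM in iPax3 and 56.1, 436 and 250.4 in iPax7 (-1.76 ± 0.46, 0.287 with all libraries and -1.29 ± 0.28, 0.0796 without iPax7 replicate 1). Cdk6, a partner of D cyclins, was at 245, 228 and 270.2 CPM in iPax3 and 47.3, 179.6 and 106 in iPax7. For Cdk6 the log2 fold change was -1.16 ± 0.39 (adjusted p = 0.508) with all libraries and -0.80 ± 0.33 (adjusted p = 0.764) without iPax7 replicate 1. Both were lower in every iPax7 library. Cdkn1c, an imprinted inhibitor of cyclin-dependent kinases, stood at 49.4, 136 and 8.64 CPM in iPax3 and 11.1, 662 and 421 in iPax7 (2.50 ± 0.999, 0.698 with all libraries and 3.06 ± 0.69, 0.124 without iPax7 replicate 1), with iPax7 replicates 2 and 3 high and iPax3 spread widely. Genes of S phase and mitosis had a median of 0.13 with all libraries and -0.53 without iPax7 replicate 1, where 13 of 27 were lower without overlap (background 22.2%), none higher and none called (1 at an unadjusted p under 0.05). The sum over this list was 5174, 4071 and 5797 CPM in iPax3 and 8558, 3115 and 4275 CPM in iPax7, so iPax7 replicate 1 was the highest library and iPax7 replicate 2 the lowest. Tyms, thymidylate synthase, stood at 190.4, 149 and 206 CPM in iPax3 and 127, 84.1 and 121 in iPax7 (-0.71 ± 0.35, 0.839 with all libraries and -0.83 ± 0.38, 0.893 without iPax7 replicate 1). Mcm2, a replication helicase subunit, was at 123, 111 and 127 CPM in iPax3 and 308, 69.4 and 86.2 in iPax7. For Mcm2 the log2 fold change was 0.36 ± 0.47 (adjusted p = 1) with all libraries and -0.64 ± 0.36 (adjusted p = 1) without iPax7 replicate 1.

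Imprinted genes, expressed from 1 parental chromosome and several of them regulators of growth, had medians of 0.48 and 0.60 over 34 tested genes. Meg3 and Rian were called in both, and 15 of 34 were higher without overlap when iPax7 replicate 1 was left out (background 18.9%), against 5 of 34 with it (background 8.55%). Lower without overlap were 3 of 34 when it was left out (background 22.2%) and 1 of 34 with it (background 10.2%). Igf2, a fetal growth factor, stood at 739, 1239 and 342 CPM in iPax3 and 159, 3716 and 2124 in iPax7 (1.37 ± 0.72, 0.925 with all libraries and 1.91 ± 0.43, 0.0993 without iPax7 replicate 1). Zim1, a zinc finger gene, was at 118, 77.7 and 69.4 CPM in iPax3 and 4.36, 211 and 218 in iPax7. For Zim1 the log2 fold change was 0.71 ± 0.75 (adjusted p = 1) with all libraries and 1.27 ± 0.25 (adjusted p = 0.0551) without iPax7 replicate 1. Both were higher than all iPax3 libraries in iPax7 replicates 2 and 3 and lower than all in iPax7 replicate 1. In the retinoic acid pathway, Crabp2 was the only call in either fit, and the medians were 0.72 with all libraries and 0.49 without iPax7 replicate 1. Higher without overlap were 4 of 18 genes with all libraries (background 8.55%) and 5 of 19 without iPax7 replicate 1 (background 18.9%). In both fits 1 gene was lower without overlap (backgrounds 10.2% and 22.2%). This was Aldh1a3, at 8.19, 67.7 and 3.61 CPM in iPax3 and 0.806, 3.45 and 3.41 in iPax7. For Aldh1a3 the log2 fold change was -3.37 ± 1.20 (adjusted p = 0.571) with all libraries and -2.96 ± 1.35 (adjusted p = 0.893) without iPax7 replicate 1. Its iPax3 replicate 2 was far above the other libraries. Stra6, a retinol transporter, was at 1.31, 1.05 and 0.369 CPM in iPax3 and 1.47, 4.39 and 9.16 in iPax7. For Stra6 the log2 fold change was 2.45 ± 1.09 (adjusted p = 0.768) with all libraries and 2.88 ± 1.13 (adjusted p = 0.712) without iPax7 replicate 1.

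For glycolysis genes the sign of the median depended on iPax7 replicate 1. It was 0.50 with it and -0.50 without it, with 10 of 22 then lower without overlap against a background of 22.2%. edgeR called none in either fit (3 and 4 at an unadjusted p under 0.05). Ldha, lactate dehydrogenase, stood at 555, 452 and 529 CPM in iPax3 and 819, 222 and 270.4 in iPax7 (-0.23 ± 0.45, 1 with all libraries and -1.07 ± 0.39, 0.574 without iPax7 replicate 1). Pkm, pyruvate kinase, was at 1534, 1701 and 1549.8 CPM in iPax3 and 2766, 879 and 1055 in iPax7. For Pkm the log2 fold change was -0.03 ± 0.35 (adjusted p = 1) with all libraries and -0.73 ± 0.26 (adjusted p = 0.524) without iPax7 replicate 1. Both were lower than iPax3 in iPax7 replicates 2 and 3 and higher in iPax7 replicate 1. Oxidative phosphorylation genes had medians of -0.07 and -0.06, with 7 positive of 23 and of 24 tested (56.2% and 45.0% of all genes were).

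Of the markers of other cell types, those of fibroblasts held calls (Col1a2 and Mgp, both named above), and the lists that follow held none. Epithelial and mesothelial markers had a median of 1.04 with all libraries but -1.60 without iPax7 replicate 1, where none of 19 had a positive log2 fold change (45.0% of all genes did) and 8 were lower without overlap (22.2%). Krt18, a keratin of simple epithelia, stood at 148, 305 and 261 CPM in iPax3 and 61.5, 29.9 and 24.8 in iPax7 (-2.62 ± 1.21, 0.795 with all libraries and -3.13 ± 1.46, 0.908 without iPax7 replicate 1) and was called in the 5 libraries alone (-3.07 ± 0.35, 0.0353). Its partner Krt8 stood at 184, 467 and 239.8 CPM in iPax3 and 73.4, 162 and 95.2 in iPax7 (-1.43 ± 0.50, 0.524 with all libraries and -1.22 ± 0.53, 0.818 without iPax7 replicate 1). The mesothelial Msln stood at 266, 163 and 322 CPM in iPax3 and 6.08, 89.5 and 143 in iPax7 (-1.66 ± 0.74, 0.759 with all libraries and -1.12 ± 0.49, 0.840 without iPax7 replicate 1), and the desmosomal Dsp at 368, 616 and 381 CPM in iPax3 and 73.02, 216 and 264 in iPax7. For Dsp the log2 fold change was -1.30 ± 0.51 (adjusted p = 0.677) with all libraries and -0.93 ± 0.48 (adjusted p = 1) without iPax7 replicate 1. All 4 were lower in every iPax7 library than in every iPax3 library. Cdh1 and Epcam belong to both this list and the pluripotency list, so these lists partly move together by membership. In iPax3 replicate 2, Cdh1 stood at 58.3 CPM, against 0.805 in replicate 1. Lin28a, of the pluripotency list only, stood at 43.02 CPM against 0.245. The part of such transcripts in the result was not tested. Without iPax7 replicate 1 and iPax3 replicate 2 the median of the epithelial and mesothelial list was -0.79. For the pluripotency list, the median of 4.98 with all libraries became -1.33 without iPax7 replicate 1 and was within 0.01 of 0 without iPax3 replicate 2 as well.

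Blood and immune markers summed to at most 46.3 CPM and endothelial markers to at most 204 CPM in any iPax library. Hox genes summed to 5.32 to 66.1 CPM, with 2 to 8 of 39 at 1 CPM or more. Smooth muscle and pericyte markers summed to 381, 744 and 153 CPM in iPax3 and 644, 1291 and 1069.7 CPM in iPax7, and cardiac markers, which share genes with embryonic skeletal muscle, to 77.2, 128 and 26.9 CPM in iPax3 and 35.1, 290.4 and 245 CPM in iPax7. In both, iPax3 replicate 3 was the lowest iPax3 library and iPax7 replicates 2 and 3 were above all of iPax3. Neural, endoderm, tendon and cartilage, germline, Notch, BMP and TGF-beta, antigen presentation and cholesterol synthesis lists gave no call in either fit (the plots of list medians and list levels show them).

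**Figure D5:**
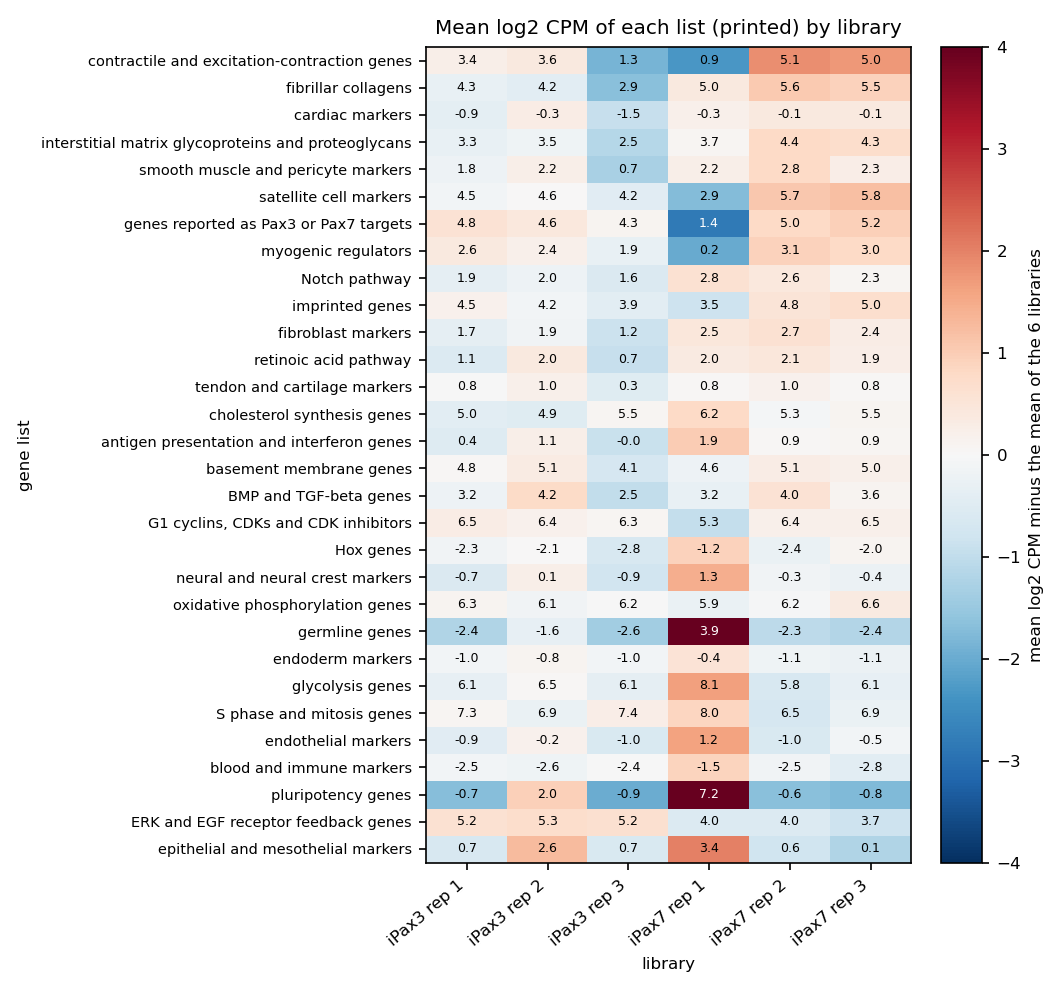
Mean log2 CPM of each gene list in each of the 6 libraries (printed), coloured by its difference from the mean of the 6 libraries (the colour saturates at the ends of its scale), with lists ordered by their median log2 fold change without iPax7 replicate 1. iPax7 replicate 1 is high in pluripotency (7.22) and germline (3.93) genes and low in contractile genes (0.87), and iPax3 replicate 3 is low in contractile genes (1.33).

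The genes that set iPax7 replicate 1 apart are given as a description, with no test. Of genes at 50 CPM or more there, those furthest above the other 5 libraries included Nanog at 511 CPM against 0.2899 to 2.31, Sox2 at 505 against 0.338 to 2.38, Tdgf1 at 1022 against 0.2702 to 4.86 and Zfp42 at 273 against 0.101 to 1.36. Nanog and Sox2 are core factors of pluripotency, Tdgf1 is a Nodal coreceptor and Zfp42 is a marker of naive stem cells. Dppa5a stood at 1082 CPM against 0.405 to 2.598, Fgf4 at 267 against 0.158 to 0.953, Tdh, the threonine dehydrogenase of mouse ES cells, at 231 against 0.101 to 0.524, and the nuclear receptor Nr5a2 at 52.02 against 0.0525 to 0.171. Triml2, Fbxo15, Dmrt1, Prmt8 and Cnpy1 were at least 240.0-fold above the highest of the other 5. Morc1 and Ooep were at least 411 and 297-fold higher against a floor of 3 counts. Germline markers at 1 CPM or more numbered 18 of 20 there and 1 to 3 in each of the others.

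Lowest in the same library, of genes at 50 CPM or more in all the others, were genes of muscle and of adhesion. Col19a1, a collagen of developing muscle, stood at 0.1099 CPM against 60.2 to 132, Myf5 at 1.099 against 83.2 to 292, Cdh15, M-cadherin, at 0.843 against 62.95 to 234, and Chrna1, the acetylcholine receptor alpha subunit, at 1.43 against 80.9 to 384. The laminin chain Lama2 stood at 2.05 against 96.2 to 359, the troponin Tnnt3 at 1.43 against 56.8 to 202, the cofactor Vgll3 at 7.47 against 278 to 397, and the satellite cell receptor Megf10 at 6.08 against 161 to 473. Sytl2, Ptprd, Limch1, Rbm24, Npnt, Sema3d and Cdh2 completed the 15, at 20.4 to 77.3-fold below the lowest of the others. In the library labelled iPax7 replicate 1, these muscle genes were thus far below both groups, while Col1a2, Bgn, Meg3 and Rian were above the lowest of the other iPax7 libraries.

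Differences within iPax3 are also given as a description. iPax3 replicate 3 was furthest below the other iPax3 libraries for Myh3, the embryonic myosin heavy chain (358, 400.2 and 22.8 CPM), and also for Mylpf, Tnnc1 (50.7, 94.4 and 10.4) and Tagln, a smooth muscle actin-binding protein (59.9, 243 and 6.75). Matrix genes followed: Nid2 (264, 257 and 39.1), Thbs1 (1301, 1562 and 290.2), Col4a5 (258, 223 and 50.2) and Efemp1 (97.7, 99.9 and 25.96), with the receptor adaptor Grb10 (85.7, 660.0 and 12.5) and the adhesion protein Tenm3 (68.3, 145 and 17.9). Above the other iPax3 libraries were mitochondrially encoded transcripts, among them mt-Atp6 (687, 470.0 and 2385) and mt-Co2 (689, 486 and 2344), with mt-Atp8, mt-Co3, Stc1 (26.5, 15.4 and 94.3), Nrcam, Stac2 and Pde1a. Hnrnpa3 and Rpl35 were also above, and both have processed copies in the genome that can share reads. Leaving out iPax3 replicate 3 reduced the calls from 13 to 3 with all libraries and from 40 to 19 without iPax7 replicate 1.

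Set beside the tissue-derived groups, which share the iPax libraries' scaling, the called genes took different positions. Ccnd1 averaged 513 ± 55.9 CPM in iPax3 and 98.4 ± 36.5 in iPax7 (SD, n = 3; 116 in iPax7 replicates 2 and 3 alone), and 104 ± 13.7, 67.9 ± 20.1 and 88.7 ± 12.1 in Emb, Fet and Neo, so iPax7 lay near the tissue groups and iPax3 above every one. Crabp2 averaged 10.1 ± 1.32 and 81.2 ± 45.97 (103 in replicates 2 and 3) against 187 ± 37.9, 84.7 ± 17.97 and 16.9 ± 7.78. For Col1a2 the means were 36.7 ± 21.2 and 652 ± 256 (651 in replicates 2 and 3) against 1023 ± 177, 9148 ± 389 and 24846 ± 12841, and for Rian 86.04 ± 39.8 and 324 ± 26.1 (312 in replicates 2 and 3) against 1719 ± 311, 2681 ± 350.1 and 1997 ± 390.2. Both iPax groups were below every tissue group in the last 2 genes. Hmga2 stood at 867 ± 161 and 121 ± 83.8 (166 in replicates 2 and 3) against 1105 ± 429, 100.2 ± 21.2 and 16.6 ± 7.87, with iPax3 nearest to Emb and iPax7 nearest to Fet. No test of these positions was made, and the tissue groups differ from the iPax groups in being freshly sorted rather than cultured.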

How the data were processed

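Per the submitters' processing notes, the authors used CASAVA 1.8, HISAT2 2.0.2, Subread featureCounts 1.4.6 and build mm10; the annotation, strand setting and treatment of multi-mapping reads are not given in the sources used here. The authors deposited integer counts of reads, 1 per gene and library; GENCODE M21 (GRCm38) supplied the symbol and position of 47309 of the 47728 identifiers. Single-cell files were not used.

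Genes passing filterByExpr were scaled by TMM and fitted with a robust quasi-likelihood model, 1 mean per group, in edgeR 4.0.16 (R 4.3.3) to 15 bulk libraries, and to 14 without iPax7 replicate 1. The contrast was iPax7 minus iPax3, and p-values were adjusted (Benjamini-Hochberg, all genes tested, 0.05). Every adjusted p comes from this test unless DESeq2 1.42.0 is named. Values after ± are SE of log2 fold changes or SD of CPM. The SE was derived from the test, as the absolute log2 fold change over the square root of its F statistic. Log2 CPM used a prior count of 2. The model was tested on simulated counts.

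Named were Pax3, Pax7 and the Myf genes; every gene called with all libraries; of those called without iPax7 replicate 1, the 15 largest changes each way without overlap and at 20 CPM or more in the higher group; up to 4 genes per list by smallest p; and the 15 (iPax7 replicate 1) or 10 (iPax3 replicate 3) most deviating genes each way at 50 CPM or more. Predicted genes, pseudogenes and Y-linked genes were left out. Calls of the 5-library fit, genes lower within a matrix or satellite list, Pdgfra, Igf1, Igfbp4 and Igfbp5 were named after their values were seen. The members and the 31 lists were chosen with earlier results of these data known. Other scalings, filters, DESeq2, a replicate block, thinning and left-out libraries were tried.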

Additional observations from a re-analysis of the deposited data

How the results depend on the processing

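With all libraries (13 calls), DESeq2 called 253, no low-count filter 22, the replicate block 7, and the 6 iPax libraries alone 0 in edgeR, with 1686 at an unadjusted p under 0.05. Leaving out 1 library gave 3 (without iPax3 replicate 3) to 40 (without iPax7 replicate 1) calls, with 6, 8 and 28 without iPax3 replicate 1, iPax3 replicate 2 and iPax7 replicate 2. Without iPax7 replicate 1 (40 calls), DESeq2 called 319, DESeq2 on the 5 iPax libraries 2434, edgeR on those 5 libraries 189 and no low-count filter 125. Leaving out a further library gave 19 (iPax3 replicate 3) to 60 (iPax3 replicate 2), with 22 and 20 without iPax7 replicates 2 and 3. RLE scaling (15 and 46), a filter of 1 CPM in 3 libraries (13 and 40), a fit that is not robust (11 and 32) and thinning to the shallowest iPax library (16 and 42) stayed within 1.5 times. Residual correlations of same-numbered iPax3 and iPax7 samples were -0.33, -0.16 and -0.08. The group means behind these residuals include iPax7 replicate 1, so they cannot decide whether replicate numbers pair samples. The replicate block gave 7 calls with all libraries and 30 without iPax7 replicate 1. Among named genes, the Hmga1 log2 fold change of -0.26 with all libraries was -2.16, 0.17 and 0.30 without iPax7 replicates 1, 2 and 3, and the Ezr value of -0.49 was -1.999 without iPax7 replicate 1 and 0.029 without iPax7 replicate 3; the cause was not tested. Single alternatives were tallied for part of the genes named by rule. With all libraries, the tally held the called genes of either fit, Pax3, Pax7 and the Myf genes tested. Values kept direction and side of the threshold 373 times, no longer passed 55 times and newly passed 31 times. Without iPax7 replicate 1 these numbers were 921, 103 and 76, and no direction turned among the genes tallied. That tally left out Myf6 (-0.22 ± 2.10) and genes that qualified only through some lists, among them the neural, cardiac, Hox and Notch lists. Depth limits genes near 1 CPM, where 3 counts correspond to 0.0533 to 0.189 CPM.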

Other observations

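The chains of type I collagen, whose genes lie on different chromosomes, differed in pattern (chosen after their values were seen). Col1a2 stood at 46.9, 50.8 and 12.4 CPM in iPax3 and 655, 907 and 394 in iPax7, whereas Col1a1 stood at 10.7, 42.8 and 10.99 CPM in iPax3 and 708, 21.5 and 12.3 in iPax7, a log2 fold change of -0.35 ± 0.56 (edgeR adjusted p = 1) without iPax7 replicate 1. iPax7 replicates 2 and 3 were thus high in Col1a2 only, and iPax7 replicate 1 was high in both.

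Imprinted genes also varied within groups (chosen after their values were seen). H19, a maternally expressed RNA, was at 2321, 50.1 and 1626 CPM in iPax3 and 226, 40.03 and 1454 in iPax7, with iPax3 replicate 2 and iPax7 replicate 2 low. Plagl1 stood at 2098, 217 and 2099 CPM in iPax3 and 14.54, 1712 and 833 in iPax7, with iPax3 replicate 2 low beside its group and iPax7 replicate 1 the lowest of all. For Grb10 the levels were 85.7, 660.0 and 12.5 CPM in iPax3 and 333, 397 and 448 in iPax7, with iPax3 replicate 2 the highest of all.

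Levels of Y-linked genes differed between replicates of both groups. Ddx3y stood at 73.2, 7.15 and 127 CPM in iPax3 and 9.599, 0.743 and 11.9 in iPax7, Eif2s3y at 13.1, 3.22 and 16.05 CPM in iPax3 and 4.36, 0.169 and 8.02 in iPax7 and Uty at 7.74, 1.41 and 15.7 CPM in iPax3 and 0.293, 0.135 and 1.71 in iPax7. In each gene iPax3 replicate 2 was the lowest of iPax3 and iPax7 replicate 2 the lowest of all.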
